A study of Mus musculus with 8 samples.

Results

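The genes described here are 10 regulators of the G1 phase of the cell cycle, taken by name: the D cyclins Ccnd1, Ccnd2 and Ccnd3, the E cyclins Ccne1 and Ccne2, the CIP/KIP inhibitors Cdkn1a and Cdkn1b, and the INK4 inhibitors Cdkn2a, Cdkn2b and Cdkn2c. All 10 were found among 32780 genes, and all 10 were among the 15097 with enough counts to test. Total RNA was sequenced from the wild-type mouse stem cell line TC1, which is of embryonic origin, in the undifferentiated state at day 0 (labelled as mESCs, treatment control) and after 10 days of differentiation (labelled as differentiated cells), with 4 libraries at each time and no other group. Both groups share the line, the genotype, the extraction with TRI Reagent and a library kit that removes ribosomal RNA. The labels name neither the cell type reached at day 10 nor the protocol, and a single line was used. The labels do not say whether libraries of 1 day are separate cultures, and p-values therefore describe the spread among these libraries, which may be technical.

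In G1, D cyclins bind CDK4 and CDK6 and E cyclins bind CDK2, and these kinases phosphorylate the RB proteins, which releases E2F factors that drive genes of S phase. INK4 proteins block CDK4 and CDK6, while CIP/KIP proteins bind cyclin-CDK complexes more broadly. Mouse embryonic stem cells are known for a short G1 phase and for cyclin E and CDK2 activity through most of the cycle, and cells that differentiate usually lengthen G1.

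Estimated counts totalled 11242568 to 17843651 per library. Levels of 1 gene are given below as CPM, counts per 1000000 scaled by TMM, a factor that corrects for library makeup. Changes are given as log2 ± SE, day 10 relative to day 0, from edgeR's quasi-likelihood test, with p adjusted over all genes tested by Benjamini-Hochberg, and means are ± SD over n = 4 libraries. Pluripotency markers (8 listed, 8 lower) summed to 3210 to 3546 CPM at day 0 and 46.0 to 76.7 at day 10. Markers of several other cell types rose. Cardiac muscle markers (8 of 8 higher) summed to 832 to 1435 CPM there against 21.9 to 32.3 at day 0, fibroblast and matrix markers (7 of 7 higher) to 5975 to 10654 against 119.1 to 135, smooth muscle markers (5 of 6 higher) to 472 to 797 against 14.3 to 22.8, and endothelial markers (6 of 6 higher) to 411 to 504 against 41.1 to 45.2. Blood markers (7 of 7 higher) summed to 178 to 259 CPM against 28.0 to 34.5 at day 0, and endoderm markers (5 of 6) to 253 to 579 against 24.2 to 35.1. Epithelial and mesothelial markers (5 of 6, 1 lower) were already at 239 to 281 CPM at day 0 and at 389 to 490 at day 10. Neural markers (2 of 6, 1 lower) were at 102 to 117 CPM at day 0 and at 135 to 270 at day 10. Hbb-bh1, Hba-x and Alb were at 0 counts at day 0. In such bulk RNA, fewer cells that express a gene and less RNA per cell cannot be told apart, and the part of the cell mixture in the results below was not tested.

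The Cdkn2a gene needs its sequence to be read, because it makes different proteins from separate first exons, and the transcript counts below turn on them. In the GENCODE M21 annotation, transcript Cdkn2a-201 starts in exon 1 at chr4:89281986-89282192 and Cdkn2a-202 in exon 1 at chr4:89294334-89294653 (GRCm38, minus strand). Both then join exon 2 at chr4:89276645-89276985. The build of the deposited files is not given in the sources used here, so these positions are those of the annotation. The first 30 coding bases differ, with the start codon in capitals.
Cdkn2a-201 coding start: ATGgagtccgctgcagacagactggccagg
Cdkn2a-202 coding start: ATGggtcgcaggttcttggtcactgtgagg
The first 30 bases of exon 2 are shared but read in different frames. In the next lines capitals mark every other codon, and in Cdkn2a-202 the first 2 bases finish a codon begun in exon 1.
Cdkn2a-201 exon 2: GTGatgATGatgGGCaacGTTcacGTAgca
Cdkn2a-202 exon 2: gtGATgatGATgggCAAcgtTCAcgtAGCa
The open reading frames have 169 and 170 codons, stop included. Cdkn2a-201 encodes the INK4 protein p16INK4a, and Cdkn2a-202 encodes p19ARF, which acts on the p53 inhibitor MDM2 and not on CDK4 or CDK6.

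Cdkn2b lies on the same strand of chromosome 4, and Cdkn2a and Cdkn2b both rose, so the stretches upstream of the starts of this locus are shown, from RefSeq (GRCm38.p6, minus strand). The table held 7 of the 10 genes; Ccnd1, Ccnd2 and Ccne2 had no entry. Each stretch ends where the first M21 or RefSeq exon begins, and capitals mark a match to the E2F or CRE words named in the next paragraph.
Cdkn2a-201 start, chr4:89282193-89282442: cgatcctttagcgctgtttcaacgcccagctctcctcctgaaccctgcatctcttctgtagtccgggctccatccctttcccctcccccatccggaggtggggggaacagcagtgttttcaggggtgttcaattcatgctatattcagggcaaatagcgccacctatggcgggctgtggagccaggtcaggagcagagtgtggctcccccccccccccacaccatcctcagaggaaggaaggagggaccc
Cdkn2a-202 start, chr4:89294654-89294869: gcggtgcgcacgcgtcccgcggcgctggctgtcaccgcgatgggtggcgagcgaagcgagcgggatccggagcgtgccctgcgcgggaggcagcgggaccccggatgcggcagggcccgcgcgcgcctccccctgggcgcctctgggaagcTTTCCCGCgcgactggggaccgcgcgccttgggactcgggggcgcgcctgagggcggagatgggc
Cdkn2b start, chr4:89311040-89311282: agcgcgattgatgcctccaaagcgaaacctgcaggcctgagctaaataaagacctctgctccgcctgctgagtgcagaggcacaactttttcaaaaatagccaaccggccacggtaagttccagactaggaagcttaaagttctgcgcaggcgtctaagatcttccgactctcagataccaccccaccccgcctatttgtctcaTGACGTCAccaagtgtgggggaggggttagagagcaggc

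Words were searched on both strands of the 250 bases upstream of each RefSeq start, in 11 windows of the 7 genes and in all 32851 windows of the table. An E2F word (TTTGGCGC, TTTGCCGC, TTTCGCGC or TTTCCCGC) was in 1 of the 11, that of Cdkn2a-202, and in 1.86% of all windows. The CRE word TGACGTCA was in 1 of 11, that of Cdkn2b, and in 1.55% of all. The SP1/KLF word GGGCGG was in 7 of 11, with 4 matches in Ccne1, and in 32.7% of all, and CCAAT was in 2 of 11 and in 33.8% of all. None of the 11 held the E-box CACGTG, which 6.02% of all windows had. None held the AP-1 word TGAGTCA, found in 4.46% of all, and none the TATA word TATAAA, found in 12.4% of all. No word contains another. A match is a description of letters, not a binding site. The 11 windows ranged from 42.8% (Cdkn2c-201) to 78.4% (Cdkn2a-202) G and C, against a median of 52.4% over all windows.

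Between day 0 and day 10 the E cyclins fell, Ccnd2 rose while Ccnd1 fell, and Cdkn1a, Cdkn2a and Cdkn2b rose. Cdkn2c was called higher too, but that call held under only 11 of 18 alternative settings of the test. Of the 10 genes 5 passed the test as higher, 3 as lower, and 2, Ccnd3 and Cdkn1b, did not pass. The background was high: 82.1% of all tested genes were called, 42.7% higher and 39.4% lower, so the share of these genes that was called is near that of all genes. Their median log2 change was 0.47 against 0.06 over all tested genes. Changes over 2-fold were called for 4 of the 10 (Ccnd2, Cdkn2a and Cdkn2b higher, Ccne1 lower), against 41.4% of all tested genes. The 4 libraries of one day did not overlap those of the other in 7 of the 10, against 77.9% of tested genes: 4 were higher at day 10 (40.8% of tested genes) and 3 lower (37.2%).

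**Figure D1:**
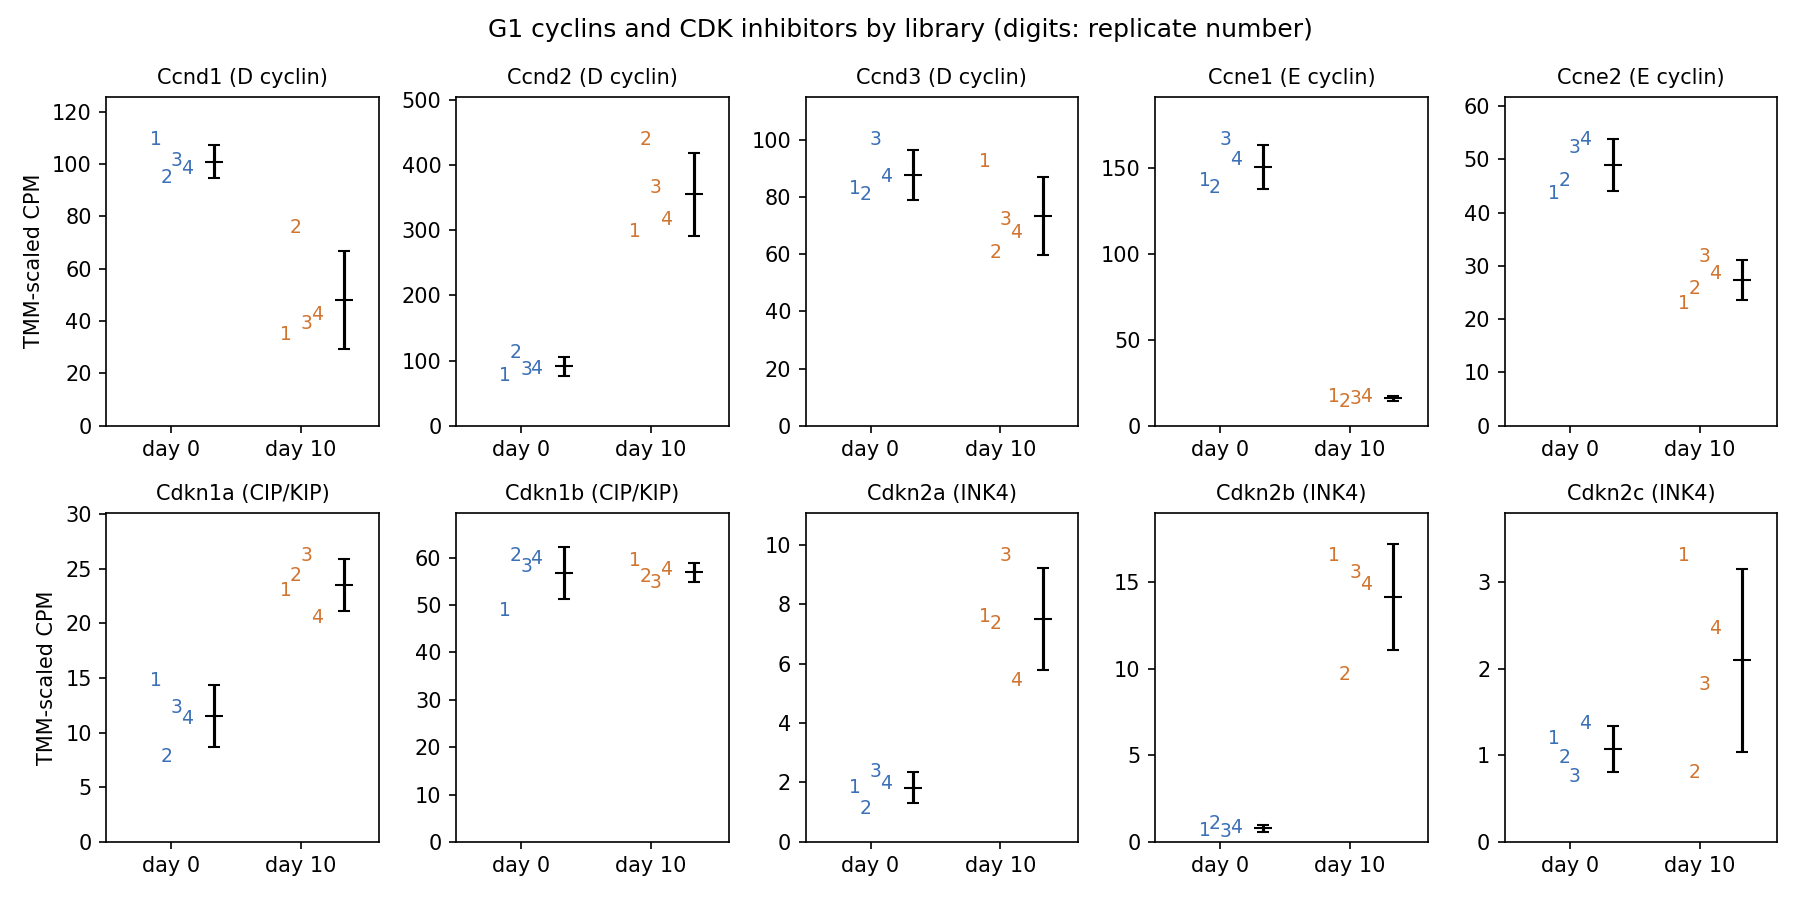
TMM-scaled CPM (vertical axis, from 0, its own scale in each panel) of each gene at day 0 and day 10. Digits are the replicate numbers of the libraries and the bars are mean ± SD over 4 libraries. The days overlap in the panels of Ccnd3, Cdkn1b and Cdkn2c. Day 10 library 2 is the highest of its day for Ccnd1 and Ccnd2 and the lowest for Ccnd3, Ccne1, Cdkn2b and Cdkn2c.

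Ccnd2 (ENSMUSG00000000184, chromosome 6), a D cyclin, was at 77.7, 113, 86.3 and 87.0 CPM in day 0 libraries 1 to 4. At day 10 it was at 298, 439, 366 and 317 CPM. Every day 10 library lay above every day 0 library, and the highest was library 2. The gene rose 3.90-fold, from 90.9 ± 15.1 to 355 ± 63.1 CPM (log2 1.96 ± 0.15, adjusted p = 3.90e-07), and also passed the test for a change over 2-fold (adjusted p = 2.23e-05). Its main transcript is long, at 6330 nucleotides, and once a trend of log2 change with transcript length, fitted over all genes, was taken out, its log2 change was 1.25.

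Ccnd1 (ENSMUSG00000070348, chromosome 7), the D cyclin most closely tied to mitogen signals, was at 109, 94.8, 101 and 98.2 CPM at day 0. Its day 10 libraries held 34.7, 75.6, 38.9 and 42.5 CPM. On CPM all 4 were below the day 0 libraries, but library 2 stood nearer to day 0 than to the other day 10 libraries. On TPM the days overlapped, with library 2 at 49.2 against 44.1 to 52.8 at day 0. The gene fell by 1.07 ± 0.23 on the log2 scale, from 101 ± 6.26 to 47.9 ± 18.7 CPM (adjusted p = 0.00276), and a change over 2-fold was not called (adjusted p = 0.359). On TPM the log2 change was -0.69, which is -1.09 when that scale's median over all genes is subtracted. Without day 10 library 2 the log2 change was -1.38 (adjusted p = 1.15e-10). That library also had the lowest matrix marker sum of its day, 5975 CPM against 8509 to 10654, and the lowest smooth muscle sum, 472 against 610 to 797. Its neural sum was 270 against 135 to 149 CPM and its pluripotency sum 76.7 against 46.0 to 49.5. Whether these marker differences reflect the cell mixture, or account for its Ccnd1 level, was not tested. Exons of Ccnd1 share 1100 of 4709 bases with LTO1 on the opposite strand, whose own counts went from 578 to 1213, and reads from the shared bases cannot be assigned by strand, as no use of strand is stated.

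Ccnd3 (ENSMUSG00000034165, chromosome 17), the remaining D cyclin, was at 82.8, 80.9, 100.2 and 87.1 CPM at day 0 and at 92.5, 60.7, 72.3 and 67.7 CPM at day 10. The days overlapped through day 10 library 1. The log2 change was -0.26 ± 0.12 (adjusted p = 0.0587), which did not pass. It passed without day 10 library 1 (log2 -0.42, adjusted p = 0.000947), with upper quartile scaling (log2 -0.27, adjusted p = 0.0491) and with the replicate number as a block (log2 -0.27, adjusted p = 0.0281). With the length trend removed it was at 0.02 and on TPM at 0.18, neither passing. Relative to the median of all genes on TPM it was at -0.21, or at 0.06 without the low-count filter.

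Levels of different genes can be compared only per transcript length, as TPM (transcripts per 1000000). At day 0 Ccnd3 supplied 53.6 to 59.3% of the summed D cyclin TPM of a library, Ccnd1 27.9 to 32.5% and Ccnd2 12.3 to 18.4%. At day 10 the share of Ccnd2 was 39.8 to 52.9%, that of Ccnd3 30.1 to 51.2% and that of Ccnd1 8.96 to 16.9%. The share of none of the 3 overlapped between the days. Ccnd2 thus went from the least to the most abundant D cyclin by mean TPM, with 22.9 ± 4.21 and then 120.6 ± 24.5 TPM. In day 10 library 1, however, Ccnd3 was above Ccnd2, at 128 against 99.3 TPM. The D cyclin sum was 147 to 163 TPM at day 0 and 220 to 291 at day 10, where the median log2 change of all genes on TPM was 0.40 against 0.06 on counts.

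**Figure D2:**
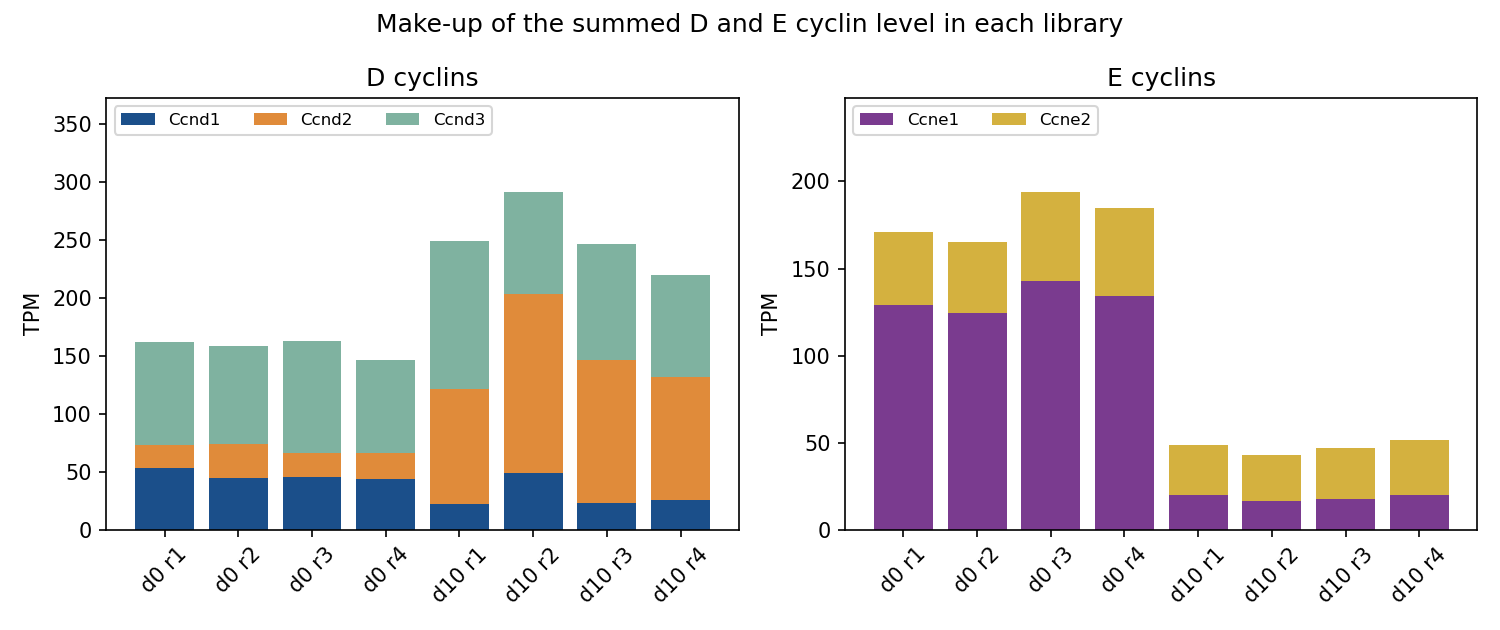
Summed TPM (vertical axis, from 0) of the D cyclins and of the E cyclins in each library (d0 and d10, day; r1 to r4, replicate), split by gene. Ccnd2 makes up 12.3 to 18.4% of the D cyclin sum at day 0 and 39.8 to 52.9% at day 10, and Ccne1 makes up 72.7 to 75.4% of the E cyclin sum at day 0 and 37.5 to 40.4% at day 10.

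The E cyclins, which activate CDK2 at the entry to S phase, both fell. Ccne1 (ENSMUSG00000002068, chromosome 7) was at 142.6, 138, 167 and 155 CPM at day 0. At day 10 it was at 17.2, 14.1, 15.7 and 17.02 CPM. The groups were far apart, with little spread within day 10. The level was 9.42-fold lower, going from 151 ± 12.7 to 15.99 ± 1.45 CPM (log2 -3.24 ± 0.09, adjusted p = 7.15e-13; over 2-fold, adjusted p = 7.63e-12).

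Ccne2 (ENSMUSG00000028212, chromosome 4) was at 43.6, 46.0, 52.2 and 53.7 CPM at day 0 and at 23.0, 25.7, 31.7 and 28.7 CPM at day 10. The days did not overlap. It fell by 0.84 ± 0.11 on the log2 scale (adjusted p = 4.91e-06), and a change over 2-fold was not called. Of its 3495 exonic bases 609 lie opposite exons of Ints8, whose counts went from 8568 to 5511.

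Within the E cyclin sum Ccne1 held 72.7 to 75.4% of the TPM at day 0 and 37.5 to 40.4% at day 10, where Ccne2 was the larger part in each library. The sum was 165 to 194 TPM at day 0 and 42.7 to 51.6 TPM at day 10. Much of the Ccne2 TPM lay in short non-coding transcripts. With protein-coding transcripts alone Ccne2 had a mean of 25.3 TPM at day 0 and 19.4 at day 10, beside 127 and 17.7 for Ccne1. On this measure Ccne2 was above Ccne1 in day 10 libraries 2, 3 and 4, whereas in library 1 it was below, at 15.6 against 18.8 TPM.

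Of the CIP/KIP inhibitors among the 10 genes 1 passed the test. Cdkn1c, of the same family but not among the 10, also passed and is given below with the pathway genes. Cdkn1a (ENSMUSG00000023067, chromosome 17), which encodes p21, a target of p53, was at 14.7, 7.86, 12.3 and 11.3 CPM at day 0. Its day 10 values were 23.0, 24.4, 26.2 and 20.5 CPM. Each day 10 library was above each day 0 library. The gene rose 2.05-fold (log2 1.03 ± 0.16, adjusted p = 3.62e-05), and a change over 2-fold was not called (adjusted p = 0.392).

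Cdkn1b (ENSMUSG00000003031, chromosome 6), which encodes p27, was at 48.8, 60.4, 58.2 and 59.9 CPM at day 0 and at 59.5, 56.0, 54.8 and 57.6 CPM at day 10. The day 10 values lay within the day 0 range, at means of 56.8 ± 5.45 and 57.0 ± 2.03 CPM. Its log2 change was 0.00 ± 0.08 (adjusted p = 0.987). On TPM it was called higher (log2 0.34, adjusted p = 0.00415). Relative to the median of all genes on that scale the log2 value was -0.05, or 0.22 without the low-count filter.

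All INK4 genes were low at day 0, and Cdkn2b had the largest log2 change of the 10 genes. Cdkn2b (ENSMUSG00000073802, chromosome 4), which encodes p15INK4b, a known target of TGF-beta signalling, was at 0.644, 1.04, 0.589 and 0.850 CPM at day 0. At day 10 it was at 16.5, 9.68, 15.5 and 14.9 CPM, with library 2 the lowest. No library of one day came near those of the other. The gene rose 17.6-fold (log2 4.14 ± 0.24, adjusted p = 1.28e-09; over 2-fold, adjusted p = 1.31e-08), on 42 counts over the 4 day 0 libraries and 861 over those of day 10.

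Cdkn2a (ENSMUSG00000044303, chromosome 4) was at 1.84, 1.11, 2.35 and 1.96 CPM at day 0 and at 7.57, 7.34, 9.63 and 5.43 CPM at day 10. The days did not overlap. It rose 4.12-fold (log2 2.04 ± 0.25, adjusted p = 3.73e-06; over 2-fold, adjusted p = 0.000349), from 94 to 451 counts in all.

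The counts of Cdkn2a came mainly from the p19ARF transcript whose coding start is shown above. Cdkn2a-202 had 17, 16, 28 and 30 counts in the day 0 libraries and 92, 113, 124 and 79 at day 10. In the test over 41067 transcripts, of which 50.6% were called, it was higher at day 10 (log2 1.91 ± 0.33, adjusted p = 0.00136). The p16INK4a transcript Cdkn2a-201 had 3 counts in day 0 library 1 and 0 in the other day 0 libraries, and 11, 6, 8 and 18 at day 10. It was too low to test, and its day 10 to day 0 ratio, from 43 against 3 counts and scaled for library size, was 12.9 with a 95% exact counting interval of 4.11 to 64.8. A count of 0 allows up to 3 counts, and the interval covers counting error only. The spread between libraries and the error of dividing reads between transcripts are not in it. Without molecular identifiers reads may also be copies of 1 molecule. Its share of the Cdkn2a TPM was 5.25 to 19.02% at day 10, and 16.7% in day 0 library 1 and 0 in the other day 0 libraries.

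Cdkn2c (ENSMUSG00000028551, chromosome 4), which encodes p18INK4c, had the lowest mean TPM of the 10 genes at both times, although at day 0 its libraries overlapped those of Cdkn2b. It was at 1.20, 0.974, 0.757 and 1.37 CPM at day 0 and at 3.31, 0.802, 1.82 and 2.46 CPM at day 10. Day 10 library 2 lay within the day 0 range. The test called it higher (log2 0.95 ± 0.40, adjusted p = 0.0416), but the call rested on 57 and 127 counts and ended without any 1 of 6 of the libraries, with adjusted p up to 0.171 without day 10 library 1 (log2 0.63). Without day 10 library 2, where it held, the log2 change was 1.22 (adjusted p = 0.00261). With the replicate number as a block the call ended too (log2 0.85, adjusted p = 0.0525). It held with the average transcript length as offset (log2 1.34, adjusted p = 0.00433) and on TPM with limma (log2 0.97, adjusted p = 0.000654). Transcript Cdkn2c-202 had 3 counts in day 10 library 2 against 19 to 37 in the others. The other form, Cdkn2c-201, was too low to test. Its libraries had 1, 2, 0 and 0 counts at day 0 and 8, 10, 6 and 12 at day 10, without overlap.

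**Figure D3:**
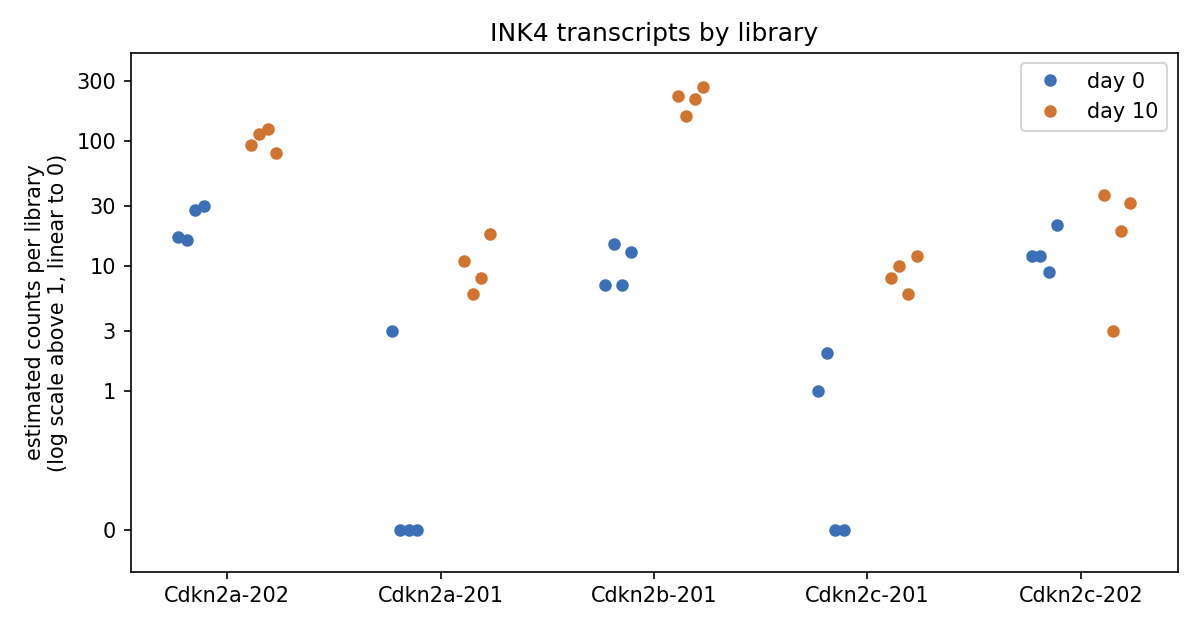
Estimated counts per library (vertical axis, logarithmic above 1 and linear to 0) of each INK4 transcript, with day 0 and day 10 libraries as separate colours, in replicate order from left to right within a colour. Cdkn2b-201 and Cdkn2a-202 are separated between the days, as are Cdkn2a-201 and Cdkn2c-201 on few counts. Cdkn2a-201 has 3 day 0 counts in all, and Cdkn2c-202 overlaps.

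Ordered by mean TPM, the day 0 libraries had Ccne1 first, at 133 ± 7.87, followed by Ccnd3 (88.0 ± 6.76), Ccnd1 (46.7 ± 4.09), Ccne2 (46.0 ± 5.34), Cdkn1b (32.2 ± 2.83), Ccnd2 (22.9 ± 4.21) and Cdkn1a (11.1 ± 2.39). The INK4 genes came last, Cdkn2a at 3.92 ± 0.960, Cdkn2b at 0.999 ± 0.2999 and Cdkn2c at 0.790 ± 0.206 TPM. Neighbours whose libraries overlapped there were Ccnd1 and Ccne2, Cdkn1b and Ccnd2, and Cdkn2b and Cdkn2c. At day 10 the order began with Ccnd2 and Ccnd3 (120.6 ± 24.5 and 101 ± 18.7), which overlapped, then Cdkn1b (41.1 ± 1.62). Cdkn1a (32.3 ± 4.09), Ccnd1 (30.03 ± 12.9), Ccne2 (29.1 ± 2.15), Cdkn2b (23.7 ± 4.67), Cdkn2a (21.4 ± 4.96) and Ccne1 (18.4 ± 1.73) followed, each overlapping its neighbour. Ccne1 thus went from the first to the ninth place of the 10, and Cdkn2c, at 2.59 ± 0.930, was again last.

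Transcripts of a gene share most of their sequence, and how the reads were divided between them is an estimate whose error the test does not hold. The 10 genes have 57 transcripts, of which 22 could be tested. Of these 6 passed as higher and 6 as lower, against 26.9% and 23.7% of all tested transcripts. Most genes had a main form with which the gene moved. Ccnd2-201 held 95.6 to 96.2% of the Ccnd2 TPM at day 10 and 94.7 to 97.5% at day 0, and rose (log2 1.92 ± 0.16, adjusted p = 2.54e-05). Ccnd1-201 fell by 1.11 ± 0.23 and Ccne1-201 by 3.27 ± 0.10 on the log2 scale.

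Other genes had several forms. Ccnd3-205, the largest share of Ccnd3, went from 67.7 ± 4.87% to 52.96 ± 7.84% of its TPM. It was called lower (log2 -0.60 ± 0.20, adjusted p = 0.035). This call was lost with no low-count filter (adjusted p = 0.0652) and without any 1 of 5 of the libraries (adjusted p up to 0.102). The shorter protein-coding form Ccnd3-208 did not pass (log2 -0.14 ± 0.23, adjusted p = 0.646). The intron-retaining Ccnd3-216, named after its values were seen, rose from 45 to 213 counts (log2 1.96 ± 0.32, adjusted p = 0.00107). Exons of Ccnd3 share 361 bases with Bysl on the opposite strand, whose counts went from 2522 to 1042.

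Among the forms of Ccne2, the protein-coding one with the largest share fell by 0.74 ± 0.15 and the non-coding Ccne2-205 by 2.22 ± 0.58 on the log2 scale (adjusted p = 0.00299 and 0.0123). Of Cdkn1a, the main form Cdkn1a-201 rose (log2 0.89 ± 0.21, adjusted p = 0.00712). The form Cdkn1a-202 has a start of its own. It had 0, 6, 4 and 18 counts at day 0 and 34, 58, 20 and 28 at day 10, and did not pass (log2 2.13 ± 0.83, adjusted p = 0.0623) unless day 0 library 4 was left out (log2 3.04, adjusted p = 0.0245). Of Cdkn1b, whose gene total did not pass, Cdkn1b-201 had 65, 50, 104 and 111 counts at day 0 and 11, 42, 28 and 0 at day 10. It did not pass either (log2 -2.27 ± 0.93, adjusted p = 0.0747), except without day 10 library 4 (log2 -1.82, adjusted p = 0.019).

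**Figure D4:**
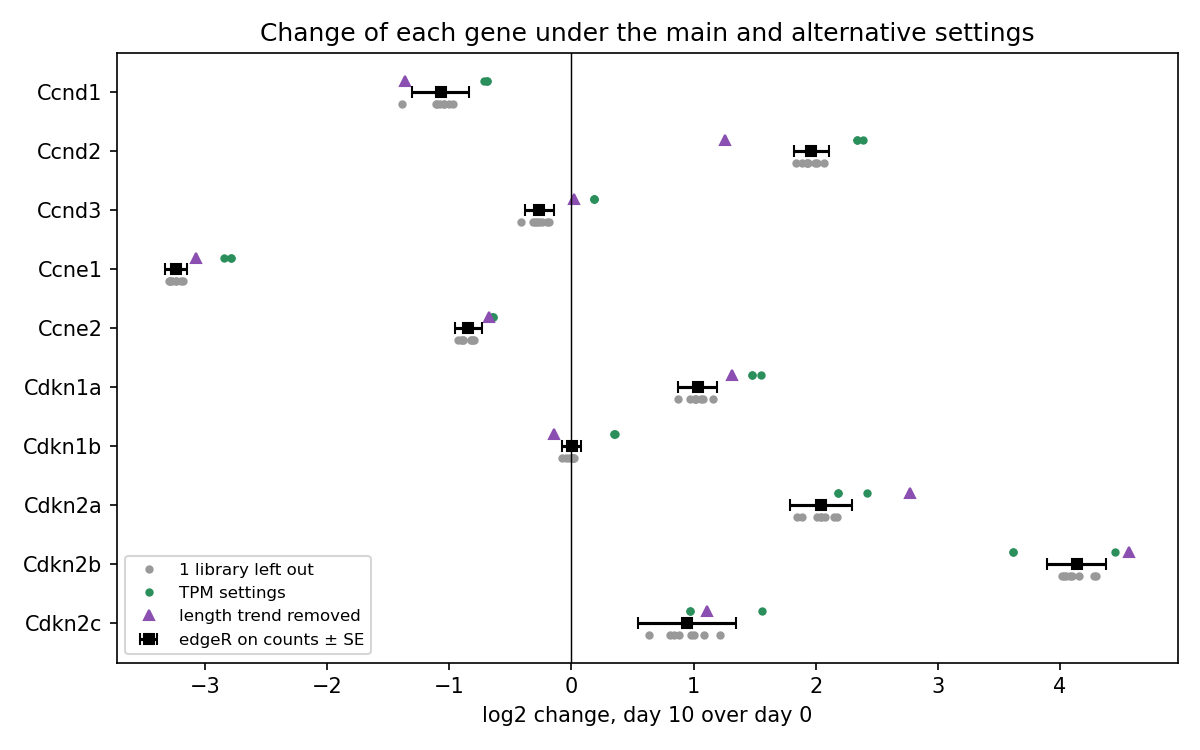
Log2 change of day 10 over day 0 (horizontal axis) of each gene: squares with bars are the edgeR estimate ± SE, grey points the values with 1 library left out, green points the TPM settings and triangles the value with the length trend removed. Ccnd3 and Cdkn1b have values on both sides of 0, and the other genes keep their side.

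Genes that act with these regulators fell in most groups, apart from the RB family. Of 89 further genes of the pathway, 87 were tested: 67 fell, 15 rose and 5 did not pass. Of all tested genes 39.4% were called lower and 42.7% higher. Over the alternatives the number that fell was 47 to 68, lowest on TPM, and the number that rose was 12 to 19. The 87 had a median log2 change of -0.82 against 0.06 over all tested genes. The lists were drawn up with earlier results of these data known, so the counts are a description. Changes over 2-fold were called for 4 as higher and 32 as lower, against 24.1% and 17.3% of all tested genes. On TPM the changes of Ccna2, Cdk2, Cul4b, E2f8, Ezh2, Fbxw7, Mcm6, Sesn2 and Tfdp1, given below on counts, were nearer to 0, with log2 values from -1.02 to -0.34. Those of Cul4a, E2f6, Foxo3, Mdm2 and Rb1 were higher, from 0.45 to 1.12. The median log2 change of all genes on that scale was 0.40. Relative to it the former genes were at -1.42 to -0.73 and the latter at 0.05 to 0.72. Without the length trend Bax was at -1.08, Ccnh at -0.84, Cdk1 at -0.54, Cks2 at -0.40, Bmi1 at 1.42 and Fbxo4 at 1.88.

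Among the other CDK inhibitors, Cdkn1c, which encodes p57, rose (log2 2.68 ± 0.16), and Cdkn3 fell by 1.06 ± 0.24 on the log2 scale, which was no longer called once the length trend was taken out (log2 -0.31, adjusted p = 0.239). Cdkn2d, which encodes p19INK4d and is named after its values were seen, was at 5.54 and 4.29 CPM (log2 -0.37 ± 0.17, adjusted p = 0.0594). Of the kinases and their activators 8 of 10 fell and 1 rose. Cdk2, the partner of the E cyclins, went from 132 ± 5.01 to 78.8 ± 2.49 CPM (log2 -0.74 ± 0.06), and Ccnh and Mnat1, subunits of the CDK-activating kinase, fell by 1.36 ± 0.09 and 1.30 ± 0.09. Cdk6, a partner of the D cyclins, rose on counts (log2 0.55 ± 0.08), but its direction turned when the average transcript length entered as offset (log2 -0.10) and when the length trend was taken out (log2 -0.15), and neither of these passed. On TPM it did not pass either (log2 0.29, adjusted p = 0.0514). All 4 tested A and B cyclin and CDK1 genes fell, among them Ccnb1 (log2 -1.80 ± 0.07), Ccna2 (log2 -1.07 ± 0.07) and Cdk1 (log2 -1.23 ± 0.07).

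All 3 genes of the RB family, the substrates of these kinases, rose. Rbl2, which encodes p130, the member linked to resting cells, went from 14.1 ± 2.61 to 42.1 ± 3.15 CPM (log2 1.57 ± 0.12, adjusted p = 2.49e-08). Rb1 rose (log2 0.65 ± 0.12) and Rbl1 rose (log2 0.30 ± 0.09), but these calls ended once the length trend was taken out, at 0.24 for Rb1 and at -0.03, the other direction, for Rbl1. The Rbl1 libraries overlapped between the days, and its call also ended when the average transcript length was used as offset (log2 0.03, adjusted p = 0.769). Of 10 E2F and DP genes 7 fell and 1 rose. E2f4 (log2 -1.87 ± 0.07), E2f8 (log2 -1.86 ± 0.09) and Tfdp1 (log2 -0.999 ± 0.06) fell, and E2f6 rose (log2 0.55 ± 0.09). All 6 tested DREAM and MuvB genes fell, with Mybl2, which drives late cell cycle genes, going from 205 ± 13.2 to 24.4 ± 1.95 CPM (log2 -3.07 ± 0.08, adjusted p = 3.54e-13). Lin9 fell by 0.72 ± 0.08, and Foxm1 by 0.41 ± 0.08, whereas on TPM Lin9 was at -0.16 and Foxm1 at 0.03, and neither passed. Relative to the shifted median of that scale they were at -0.56 and -0.37. Of the 20 E2F targets of S phase, Ccne1 and Ccne2 among them, 20 fell, for instance Mcm2 (log2 -1.64 ± 0.06) and Mcm6 (log2 -1.42 ± 0.06), which encode parts of the replicative helicase.

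The list around ubiquitin ligases that set the turnover of G1 regulators also holds genes that are not ligases, such as Cks2. Of its 12 genes 9 fell and 2 rose. Fbxw7, whose product targets cyclin E for destruction, went from 74.3 ± 3.06 to 34.0 ± 2.42 CPM (log2 -1.13 ± 0.08, adjusted p = 4.60e-09), so it fell alongside Ccne1 and Ccne2. Cks2 (log2 -1.35 ± 0.14) and Cul4b (log2 -1.03 ± 0.06) fell, and Cul4a (log2 0.69 ± 0.07) and Fbxo4 (log2 1.24 ± 0.24) rose. In the list of p53 and its targets 8 of 10 fell and 2 rose. Trp53 itself, which encodes p53, fell from 114 ± 10.5 to 44.0 ± 3.86 CPM (log2 -1.37 ± 0.09, adjusted p = 2.28e-09), Bax (log2 -1.85 ± 0.14) and Sesn2 (log2 -1.22 ± 0.14) fell, and Btg2, an antiproliferative gene, rose (log2 3.35 ± 0.10), as did Mdm2 (log2 0.18 ± 0.07), the last not when the average transcript length entered as offset (log2 0.05) nor without any 1 of 3 of the libraries (log2 down to 0.13). The rise of Cdkn1a thus went with Btg2 and against most of the list.

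Of 11 genes that feed into the D cyclins or act on the INK4 locus, 5 rose and 6 fell. Smad3, a mediator of TGF-beta signals, rose from 28.4 ± 3.47 to 126 ± 4.45 CPM (log2 2.14 ± 0.09), and Foxo3 rose on counts (log2 0.70 ± 0.07) but was at -0.03 once the length trend was taken out. Myc fell by 2.16 ± 0.22 on the log2 scale. Among the polycomb genes known to hold Cdkn2a and Cdkn2b silent, Cbx7 went from 101 ± 7.44 to 8.45 ± 2.51 CPM (log2 -3.57 ± 0.16, adjusted p = 1.36e-09) and Ezh2 from 254 ± 24.4 to 91.2 ± 7.95 (log2 -1.48 ± 0.08), while Bmi1 rose from 42.9 ± 3.20 to 80.9 ± 7.57 CPM (log2 0.91 ± 0.09).

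**Figure D5:**
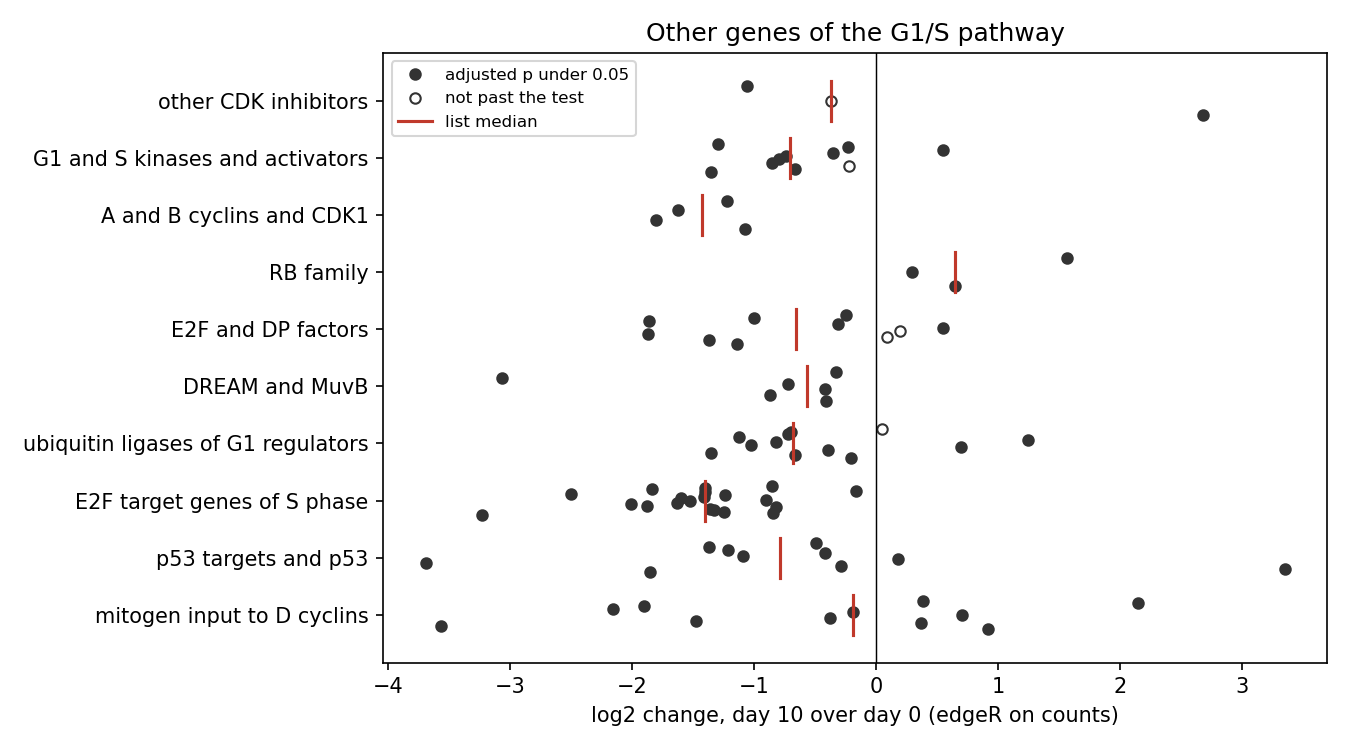
Log2 change of day 10 over day 0 (horizontal axis) of the other tested genes of the pathway, 1 point per gene, in 10 groups; Ccne1 and Ccne2 are included among the E2F targets. Filled points passed the edgeR test and red lines are group medians, which lie below 0 in 9 groups and at 0.65 in the RB family.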

How the data were processed

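RNA of 8 libraries was measured, 4 per day. The authors deposited 1 table per library with estimated counts and TPM values for 126126 transcripts, per the file headers, made with kallisto (version given only as 1) per the submitters' processing notes, which also name DESeq2. The reference and its build are not given in the sources read. Estimated counts deposited by the authors are unscaled and partly fractional, and the deposited TPM values account for each transcript's effective length. Transcripts were joined to GENCODE M21 names without version (93.6% matched; the others held 1.15 to 1.23% of counts and were left out), summed over genes and rounded. Genes and, separately, transcripts were tested with edgeR 4.0.16 in R 4.3.3 (robust quasi-likelihood, TMM, filterByExpr, glmTreat for changes over 2-fold, threshold 0.05). The gene test was also run on simulated counts in which few genes changed, unlike in these data. The transcript test and the test for changes over 2-fold were not simulated. The SE was taken as the size of the log2 change over the root of F. Alternatives used DESeq2 1.42.0, limma 3.58.1 on log2(TPM + 1) or log2(TPM + 0.1), other scalings, filters and length corrections, and left out each library. The genes named are the 10 members, their transcripts with at least 10% of the gene's TPM, and up to 3 called genes per direction of each pathway list. Members and lists were chosen with earlier results of these data known. Lin54 was not analysed here and Ccna1 was too low to test. Pairs of libraries of a day differed by more than sampling noise, and no library was dropped.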

Additional observations from a re-analysis of the deposited data

How the results depend on the processing

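Of the 10 genes 7 (Ccnd1, Ccnd2, Ccne1, Ccne2, Cdkn1a, Cdkn2a and Cdkn2b) kept their direction and their call under all 18 alternatives. Ccnd3 was called lower with upper quartile scaling (log2 -0.27) and with the replicate block (log2 -0.27), and with 1 library left out it ranged from -0.42 to -0.18. Cdkn1b was called higher on TPM, at 0.34 with a pseudocount of 1, 0.35 with 0.1 and 0.34 with no filter. Cdkn2c was not called with the replicate block (log2 0.85), and with 1 library left out it ranged from 0.63 to 1.22; the cause was not tested. The block used the replicate numbers, which no label says pair the libraries. Deviations of same-numbered libraries correlated at 0.0301 to 0.0494. These values were small, but each library correlated best with its own number, and the highest other value was 0.0278. Whether the numbers pair the libraries was not tested. With the block 6403 genes were called higher and 5895 lower, against 6449 and 5950 without. On TPM 65.8% of called genes were higher against 52.0% on counts.

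Of 37 named pathway genes 29 kept direction and call throughout. Cdk6 turned to -0.10 when the average transcript length entered as offset and to -0.15 with the length trend removed, where Rbl1 was at -0.031 and Foxo3 at -0.029. Foxm1 was at 0.028 on TPM with a pseudocount of 1, 0.029 with 0.1 and 0.028 with no filter, which is -0.37, -0.42 and -0.10 after subtracting the median over all genes in each setting. Lin9 was not called on TPM (log2 -0.16). Of 15 named transcripts tested, 12 kept their call under 11 alternatives. Transcript shares depended on the unit: 22 of 36 moved by more than 1 SD when taken from estimated counts, as for Ccnd3-205, at 79.8% and 64.4%. Depth limited the low INK4 genes, with 42, 57 and 94 counts at day 0 for Cdkn2b, Cdkn2c and Cdkn2a, and their transcripts Cdkn2a-201 and Cdkn2c-201, with 3 and 4.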
